A study of Mus musculus with 24 samples.

Results

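The matrix-remodelling enzymes and inhibitors of the mouse heart are described here, as the protein-coding genes whose symbols name a matrix metalloproteinase (Mmp), a tissue inhibitor of metalloproteinases (Timp), an ADAMTS protease (Adamts), an ADAMTS-like protein (Adamtsl) or a lysyl oxidase (Lox, Loxl). The mouse annotation holds 55 such genes among 21951 protein-coding genes. Of these, 43 were listed in at least 1 of the 2 deposited expression tables and 12 in neither. After removal of low values, 40 of the 41 members listed for uninjected hearts were tested among 15598 genes, and 40 of the 43 listed for injected hearts were tested among 14597 genes. The rule for members uses gene names and no measured value.

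Heart tissue from mice at postnatal day 7.5 was profiled by RNA-seq in 24 libraries, 4 in each of 6 groups. Uninjected wild-type (WT) and *Xinβ* KO hearts made up the first experiment. In the second, WT and *Xinβ* KO pups received adeno-associated virus serotype 9 (AAV9) on postnatal day 1, carrying either GFP or Flag-tagged human YAP S127A, a YAP form that lacks an inhibitory Hippo phosphorylation site. This gave WT/GFP, *Xinβ* KO/GFP, WT/YAP S127A and *Xinβ* KO/YAP S127A hearts. The KO allele is a germline replacement of part of *Xinβ* (also called *Xirp2*) by a LacZ-Neo cassette, kept on a C57BL6 background, so every cell of a KO animal carries it. Both vectors used the chicken cardiac troponin T promoter, which directs expression to cardiomyocytes and not to the fibroblasts or leukocytes that make much of the matrix-remodelling RNA. Controls were littermates, and the RNA-seq groups held both sexes according to the methods. The sample labels name the heart apex as the tissue and the methods name the ventricles.

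Metalloproteinases and ADAMTS proteases cut collagens, proteoglycans and other matrix proteins, and TIMPs bind their catalytic sites and block them. ADAMTS-like proteins have no protease domain and bind the fibrillin microfibrils of the matrix. Lysyl oxidases oxidise lysines of collagen and elastin so that the fibres become crosslinked. In the young heart these activities shape the matrix that fibroblasts deposit around growing cardiomyocytes, and in injured adult myocardium they are known for their part in scar formation and in dilation of the ventricle.

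The libraries held 15015038 to 31154155 reads on listed genes. *Xirp2*, the targeted gene, was at 0 to 0.972 CPM (reads per 1000000 reads) in the 12 *Xinβ* KO libraries and at 55.98 CPM or more in the 12 WT libraries, so every library matched the genotype on its label. No such check was made of the vector. Uninjected and injected libraries were sequenced separately, with single-end and paired-end reads, so injection cannot be told apart from sequencing and tests were made only within each table. These were bulk samples, in which fewer cells of a type and less RNA per cell cannot be told apart. Cardiomyocyte markers were abundant in all groups, with a summed level of 48016 to 80627 CPM over 6 genes.

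Per kilobase of annotated exon, the most abundant members of uninjected WT hearts were *Mmp2*, which encodes gelatinase A, at 52.5 ± 5.13 CPM per kb, *Timp2* at 45.1 ± 3.55, and *Mmp15*, which encodes a membrane-type metalloproteinase, at 42.3 ± 1.05 (mean ± SD, n = 4). The ranges of *Mmp2* and *Timp2*, and of *Timp2* and *Mmp15*, overlapped between libraries. *Loxl1* and *Loxl2* followed, below the range of *Mmp15*, at 33.1 ± 2.56 and 28.7 ± 1.58 CPM per kb. *Timp3* held the seventh place, at 17.9 ± 0.981 CPM per kb, and *Timp4* was at 1.14 ± 0.0492 CPM per kb. Among injected hearts, WT/GFP had *Mmp15* first by mean, at 44.7 ± 2.68 CPM per kb, and *Timp3* sixth, at 19.5 ± 1.82. The WT/GFP range of *Mmp15* overlapped those of *Timp2* and *Mmp2*. In *Xinβ* KO/GFP hearts *Timp3* stood first with a mean of 46.1 ± 17.0 CPM per kb beside *Mmp2* at 44.7 ± 8.68, and *Mmp15* was at 30.3 ± 3.15. In *Xinβ* KO/YAP S127A hearts *Timp3* was seventh, at 21.5 ± 3.42 CPM per kb.

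The members that passed the test in both comparisons of *Xinβ* KO with WT hearts, which share no library, were *Timp4*, *Mmp9*, *Mmp15*, *Adamts7*, *Adamts17* and *Adamtsl4*. *Mmp9* entered the uninjected test only through the KO libraries, where it was high. It also passed the filter of the injected table through the *Xinβ* KO/GFP libraries, so its calls are no independent support. The RefSeq promoter table (GRCm38.p6) held an entry for 4 of these 6, and the 250 bases upstream of the RefSeq start are shown 5′ to 3′ on the gene's strand because these genes also passed in the comparison of YAP S127A with GFP in KO hearts. They lie at chr6:115252206-115252455 for *Timp4* (minus strand), chr8:95352046-95352295 for *Mmp15* (plus strand), chr7:66839485-66839734 for *Adamts17* (plus strand) and chr3:95687918-95688167 for *Adamtsl4* (minus strand). The gene annotation used for the members starts *Mmp15* earlier, at position 95352268, so the end of its window lies inside that gene model. Capitals mark the GC box, GGGCGG on either strand, a binding sequence of Sp1-type factors.
Timp4: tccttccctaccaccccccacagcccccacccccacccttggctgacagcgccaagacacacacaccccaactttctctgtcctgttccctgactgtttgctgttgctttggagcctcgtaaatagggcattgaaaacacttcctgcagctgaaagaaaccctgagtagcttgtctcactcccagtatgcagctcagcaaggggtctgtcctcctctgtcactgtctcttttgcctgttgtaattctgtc
Mmp15: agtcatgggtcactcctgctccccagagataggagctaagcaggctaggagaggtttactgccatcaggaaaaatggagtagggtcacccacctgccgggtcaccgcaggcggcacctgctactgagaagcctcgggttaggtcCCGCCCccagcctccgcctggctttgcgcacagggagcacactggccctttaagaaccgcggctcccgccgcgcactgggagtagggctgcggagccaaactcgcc
Adamts17: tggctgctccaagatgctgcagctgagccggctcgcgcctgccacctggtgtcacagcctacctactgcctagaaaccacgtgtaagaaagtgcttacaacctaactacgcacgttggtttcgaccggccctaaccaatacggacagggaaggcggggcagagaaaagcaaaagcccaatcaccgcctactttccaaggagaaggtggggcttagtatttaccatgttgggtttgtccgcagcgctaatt
Adamtsl4: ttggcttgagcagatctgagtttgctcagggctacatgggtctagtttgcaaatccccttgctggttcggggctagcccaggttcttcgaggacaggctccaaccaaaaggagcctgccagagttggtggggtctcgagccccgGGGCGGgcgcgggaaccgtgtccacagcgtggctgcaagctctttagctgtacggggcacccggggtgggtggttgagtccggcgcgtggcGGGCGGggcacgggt
The GC box occurred in the *Mmp15* and *Adamtsl4* windows, and in 32.7% of all 32851 promoter windows of this length. Neither the letters GGAATG, the core bound by TEAD factors, nor TGANTCA, the AP-1 site, occurred on either strand in the 4 windows. GGAATG was found in 12.6% and TGANTCA in 6.75% of all promoter windows. Among the 26 windows of the 25 listed members with an entry, 1 held GGAATG, that of *Timp1*, none held TGANTCA and 20 held the GC box. A match, or its absence, describes only the letters of the window.

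In uninjected hearts, the comparison of *Xinβ* KO with WT asked which members differ with the germline loss of Xinβ. By limma on log2(CPM + 1) with Benjamini-Hochberg adjustment over all tested genes, 10 of 40 members passed an adjusted p of 0.05, against 6.69% of all genes, 3.23% higher and 3.46% lower. *Mmp8*, *Mmp9*, *Mmp28*, *Timp4*, *Adamts7* and *Adamtsl4* rose, and *Mmp15*, *Adamts17*, *Adamtsl1* and *Adamtsl3* fell. *Mmp8* and *Mmp9* exceeded 1 CPM only in KO libraries and so could enter the test only by being higher there. Without them the count was 8 of 38, with 4 higher and 4 lower. The median log2 fold change of the 40 members was -0.04, against 0.00 over all genes. All members called had KO and WT values that did not overlap, as did 13 of the 40 members in all and 16.4% of all genes. The call count was 6 without KO replicate 2 or without any of the 4 WT replicates, where 2.43% to 3.38% of all genes were called.

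*Timp4*, the inhibitor best known from heart muscle, had the largest log2 fold change of CPM + 1 among the tested members, although the ratio of mean CPM was higher for *Mmp8*, at 24.3. It was measured at 61.6, 83.2, 78.6 and 18.1 CPM in the KO libraries and at 6.77, 6.39, 7.08 and 6.63 CPM in the WT libraries. The WT values were nearly identical, whereas KO replicate 4 stood well below the other KO hearts and still above every WT heart. The log2 fold change was 2.78 ± 0.42 (SE; adjusted p = 0.00699, limma), a ratio of means of 8.98. *Timp3*, a matrix-bound inhibitor that also acts on ADAMTS and ADAM proteases, was at 142, 382, 347.8 and 238 CPM in KO and at 138, 144, 157 and 144 CPM in WT hearts. KO replicate 1 lay within the WT range, and the difference of 0.83 ± 0.27 on the log2 scale did not pass (adjusted p = 0.107, limma), but did without KO replicate 1 (log2 fold change 1.12, adjusted p = 0.00642) and by DESeq2 on all libraries (0.94, adjusted p = 0.0101). *Timp3* did not pass by edgeR, nor in 7 of 8 fits that left out 1 library (adjusted p up to 0.236, limma). *Timp2*, which also takes part in the activation of MMP2 at the cell surface, was at 126.96 to 156 CPM in KO and 164 to 195.7 CPM in WT hearts. These ranges did not overlap, and its log2 difference of -0.32 ± 0.10 did not pass over all genes (adjusted p = 0.0851, limma). It passed under quantile scaling (adjusted p = 0.0352, limma), by DESeq2 (0.0273) and without KO replicate 4 (0.0381). It did not pass by edgeR, nor in 7 of 8 fits that left out 1 library (adjusted p up to 0.208, limma). *Timp1* was low throughout, at 4.84 to 12.2 CPM in KO and 5.72 to 8.61 CPM in WT hearts.

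Among the metalloproteinases, the membrane-bound *Mmp15* fell. It was at 146, 157, 127.4 and 159 CPM in KO and at 225, 222, 234.7 and 231 CPM in WT hearts, a log2 fold change of -0.63 ± 0.09 (adjusted p = 0.00707, limma). *Mmp28*, which encodes epilysin, was at 10.4, 17.7, 19.2 and 9.10 CPM in KO against 7.17, 6.21, 4.78 and 4.04 CPM in WT hearts, and rose by 1.17 ± 0.26 (log2, adjusted p = 0.0314, limma). The *Mmp28* call did not hold when KO replicate 2 or 3 or any WT replicate was left out, with adjusted p up to 0.0962. Fold changes of the abundant *Mmp2* and *Mmp14*, which encodes the membrane-type protease that activates MMP2, were 0.33 ± 0.14 and -0.18 ± 0.11 and did not pass.

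The neutrophil collagenase *Mmp8* and the gelatinase *Mmp9*, which neutrophils store in granules, were rare in WT hearts. *Mmp8* was at 1.46, 3.36, 4.15 and 1.27 CPM in KO and at 0, 0.174, 0 and 0.247 CPM in WT hearts, or 242 reads over the KO libraries and 11 over the WT libraries. Its log2 difference of 1.60 ± 0.26 is given as a description, since it entered the test only through the KO libraries. *Mmp9* was at 2.77, 3.39, 4.90 and 2.22 CPM in KO and at 0.362 to 0.453 CPM in WT hearts, and its log2 difference of 1.60 ± 0.18 is a description for the same reason. Both differences understate the ratio because 1 CPM was added before the logarithm. Of 11 neutrophil marker genes 7 were listed, and their summed level was 52.8 to 117 CPM in KO and 4.88 to 11.2 CPM in WT hearts. All 7 rose, among them *S100a8* and *S100a9*, which encode calprotectin, whereas *Camp*, *Mpo*, *Elane* and *Cxcr2* were not listed. The 4 KO libraries alone could meet the filter, and the WT sums were low. Some markers could therefore enter the test only with KO libraries, where they were high, and the count of 7 is a description. Over all genes 3.23% were called higher. Macrophage markers fell for 5 of 6 genes, against 3.46% of all genes, with a sum of 26.4 to 45.3 CPM in KO and 68.3 to 85.4 CPM in WT hearts. The part of either list in the *Mmp8* and *Mmp9* differences was not tested. *Mmp25*, another leukocyte-associated metalloproteinase, went the other way at 0.198 to 0.519 CPM in KO and 0.972 to 1.29 CPM in WT hearts. It did not pass the filter on low values in either table, and with no filter its log2 difference was -0.65 ± 0.11. This is a description, since only WT libraries exceeded 1 CPM. In GFP-injected hearts the *Mmp25* difference of KO from WT with no filter was -0.26 ± 0.24, also a description.

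Of the 15 ADAMTS proteases tested in uninjected hearts, 2 passed, against 6.69% of all genes, and nothing about the family is read from this count. *Adamts7*, which encodes a protease of cartilage oligomeric matrix protein, was at 80.1, 99.3, 126 and 68.1 CPM in KO and at 52.2, 56.0, 46.6 and 50.6 CPM in WT hearts, and rose by 0.81 ± 0.18 (log2, adjusted p = 0.0297, limma). *Adamts17*, whose human counterpart is mutated in a Weill-Marchesani-like syndrome, was at 5.83, 8.17, 6.44 and 16.6 CPM in KO and at 20.6, 18.1, 24.8 and 23.5 CPM in WT hearts, with a log2 fold change of -1.25 ± 0.28 (adjusted p = 0.032, limma). KO replicate 4, which had the lowest *Timp4* of the KO hearts, had the highest *Adamts17*. The *Adamts7* call was lost without KO replicate 2 or any WT replicate (adjusted p up to 0.0950), and the *Adamts17* call without KO replicate 2 or 3 or any WT replicate (adjusted p up to 0.0996) and by edgeR (0.0552). *Adamts6* was at 21.5 to 44.0 CPM in KO and 14.4 to 20.7 CPM in WT hearts, and its log2 difference of 0.85 ± 0.23 stayed just outside the threshold (adjusted p = 0.0562, limma).

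Of the 5 ADAMTS-like genes, 3 passed in uninjected hearts, against 6.69% of all genes. *Adamtsl4*, a fibrillin-binding protein linked to lens dislocation in humans, was at 46.4, 63.3, 61.0 and 39.6 CPM in KO and at 23.1, 26.9, 23.3 and 27.9 CPM in WT hearts, a rise of 1.01 ± 0.16 (log2, adjusted p = 0.00892, limma). *Adamtsl3* was at 7.48, 11.8, 11.5 and 9.52 CPM in KO and at 21.7, 20.8, 22.4 and 19.3 CPM in WT hearts, a log2 fold change of -1.01 ± 0.15 (adjusted p = 0.0063, limma). *Adamtsl1* was scarce, at 1.31 to 1.85 CPM in KO and 2.62 to 3.256 CPM in WT hearts. Its log2 fold change was -0.55 ± 0.12 (adjusted p = 0.0296, limma), and the call was lost without KO replicate 2 or 3 or any WT replicate. None of the 5 lysyl oxidases passed, where 6.69% of all genes did, so the absence of calls among 5 genes says little. Their log2 fold changes ran from -0.39 to 0.27, with none under an unadjusted p of 0.05. Count models on reads recovered from the CPM values called 10 members and 6.13% of all genes (edgeR), and 14 members and 12.5% of all genes (DESeq2).

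**Figure D1:**
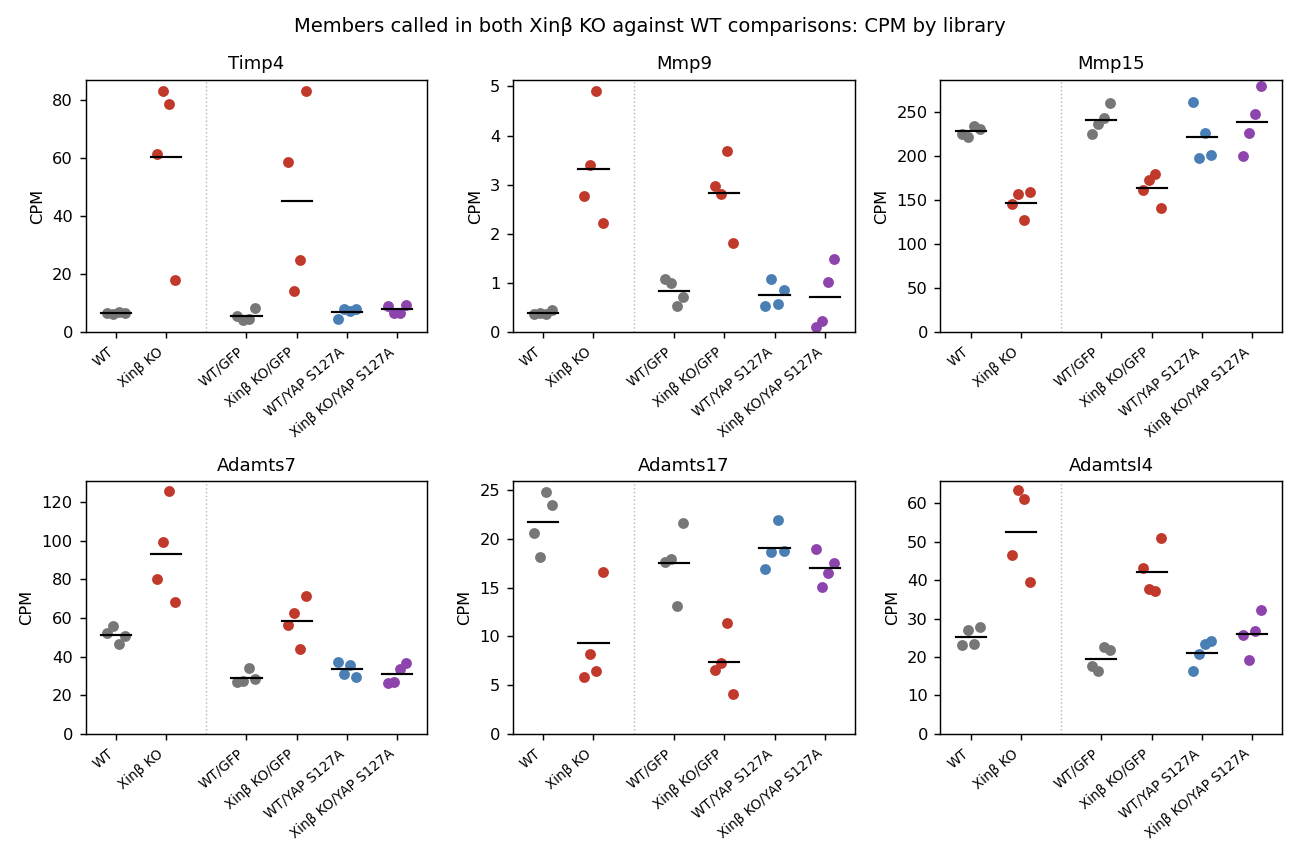
CPM in each library (points) of the 6 members called in both comparisons of *Xinβ* KO with WT hearts, with group means as horizontal lines; the dotted line separates the uninjected from the injected table. The 4 *Xinβ* KO/GFP hearts lie apart from the 4 WT/GFP hearts for each gene, and the *Xinβ* KO/YAP S127A hearts lie at or near the WT levels.

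After injection of the control vector, the comparison of *Xinβ* KO/GFP with WT/GFP hearts asked the same question in animals that received virus. Here 15 of 40 members passed, 7 higher and 8 lower, against 13.7% of all genes, 6.43% higher and 7.22% lower. The median log2 fold change of the members was -0.00, against -0.01 over all genes. Non-overlapping groups were found for 10 members and for 15.3% of all genes. *Timp4*, *Mmp9*, *Adamts7* and *Adamtsl4* rose and *Mmp15* and *Adamts17* fell, in the direction seen in uninjected hearts. These 6 were 6 of the 10 uninjected calls and 6 of the 15 called here. Of the 10, *Mmp8* was not tested here, and *Mmp8* and *Mmp9* had entered the uninjected test only through KO libraries. *Mmp9* passed the filter here through the *Xinβ* KO/GFP libraries as well. Over all genes tested in both tables, 61.8% of the uninjected calls and 31.6% of the GFP calls were called in the same direction in the other comparison, and nothing particular to the members is read from their count. *Timp3*, *Adamts6* and *Mmp19* also rose, and *Adamts8*, *Adamts15*, *Adamts19*, *Adamtsl5*, *Loxl1* and *Loxl2* also fell. *Mmp28*, *Adamtsl1* and *Adamtsl3*, called in uninjected hearts, had log2 differences of 0.73 ± 0.29, -0.20 ± 0.23 and -0.52 ± 0.22 here and did not pass.

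*Timp4* again had the largest log2 fold change of CPM + 1 among the tested members, which do not include *Mmp8*. It was at 58.8, 14.2, 25.1 and 83.2 CPM in the *Xinβ* KO/GFP and at 5.62, 4.41, 4.46 and 8.27 CPM in the WT/GFP hearts, a log2 fold change of 2.53 ± 0.39 (adjusted p = 0.000587, limma). The groups did not overlap, but the KO hearts spread widely, and replicates 2 and 3 stood well below replicates 1 and 4. *Timp3* was at 445, 192, 354 and 511 CPM in the *Xinβ* KO/GFP and at 165, 173, 159 and 139 CPM in the WT/GFP hearts, a rise of 1.15 ± 0.22 (log2, adjusted p = 0.00261, limma), with replicate 2 lowest of the KO hearts for *Timp3* as for *Timp4*. *Timp2* was at 131, 96.2, 149 and 118 CPM in the *Xinβ* KO/GFP and at 147, 165, 144 and 163 CPM in the WT/GFP hearts, and its log2 difference of -0.34 ± 0.13 did not pass (adjusted p = 0.11, limma), but did without KO replicate 3 (-0.43, adjusted p = 0.0413). In 15 of 16 fits that left out 1 library *Timp2* did not pass (adjusted p up to 0.24, limma). *Timp1* was at 5.84 to 12.7 CPM and 6.14 to 11.3 CPM and was not called.

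*Timp1*, *Timp3* and *Timp4* lie inside synapsin genes on the opposite strand. The libraries kept strand, but whether the counting used it is not given in the sources used here, so reads of nested genes could not be assigned with certainty. *Syn3*, which spans *Timp3* at chr10:86300372-86349506 (GRCm38), was listed in the injected table only, at 211, 137, 174 and 254 CPM in the *Xinβ* KO/GFP and 66.1 to 102 CPM in the WT/GFP hearts. The sum of *Timp3* and *Syn3* was 329 to 764 CPM in the *Xinβ* KO/GFP and 205 to 268 CPM in the WT/GFP hearts. Since each gene alone had separate groups, their sum had to separate too and does not tell how the reads were shared. *Syn2*, which spans *Timp4* at chr6:115241892-115252205 (GRCm38), was at 0.719 to 7.61 CPM in all libraries and did not follow *Timp4*. *Mmp11* and *Adamts7* overlap *Chchd10* and *Tbc1d2b*, and *Tbc1d2b* was at 18.0 to 35.2 CPM. *Mmp11* was at 9.09 to 13.1 CPM in the uninjected and 33.3 to 60.8 CPM in the injected table, with its abundant neighbour *Chchd10* at 271 to 604 CPM throughout, and neither table gave a called difference for it.

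**Figure D2:**
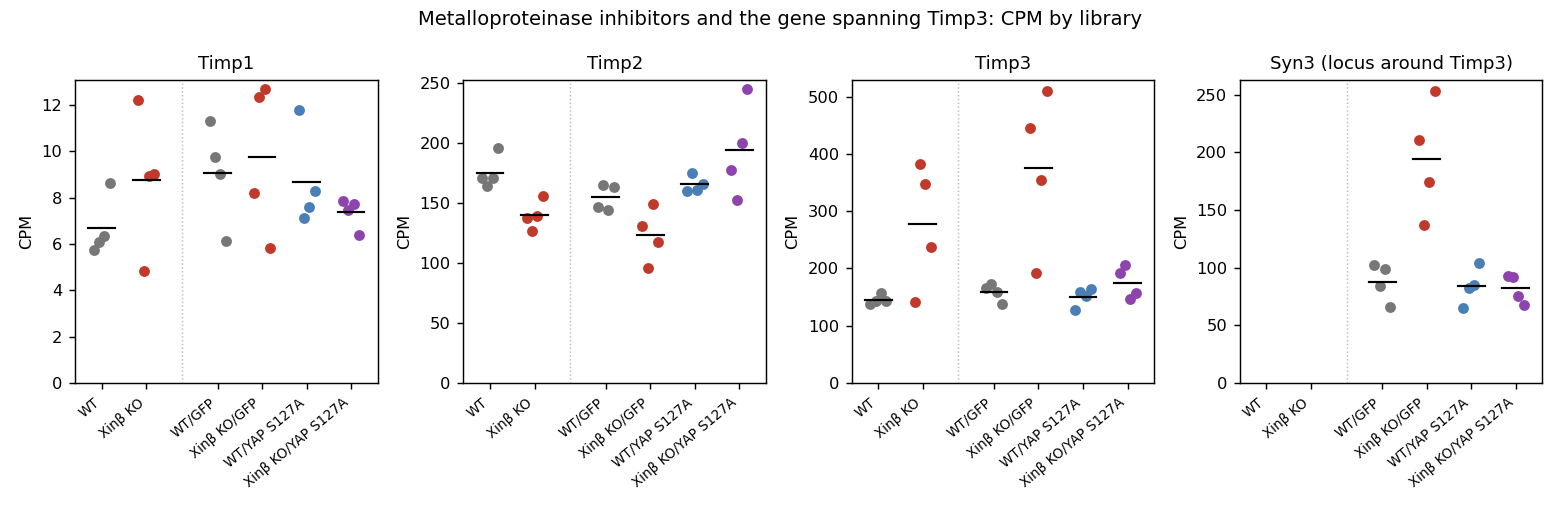
CPM in each library (points) of *Timp1*, *Timp2*, *Timp3* and of *Syn3*, the gene that spans *Timp3* on the opposite strand, with group means as lines; *Syn3* was not listed for uninjected hearts. *Timp3* and *Syn3* are both highest in *Xinβ* KO/GFP hearts.

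The metalloproteinases called in *Xinβ* KO/GFP hearts were *Mmp9*, *Mmp15* and *Mmp19*. *Mmp15* was at 162, 173, 180 and 141 CPM against 225, 237, 243 and 260 CPM in the WT/GFP hearts, a log2 fold change of -0.56 ± 0.11 (adjusted p = 0.00357, limma). *Mmp9* was at 2.98, 2.81, 3.69 and 1.82 CPM against 1.08, 1.00, 0.544 and 0.712 CPM, a rise of 1.05 ± 0.24 (log2, adjusted p = 0.00781, limma). *Mmp9* exceeded 1 CPM in 9 injected libraries, 4 of them *Xinβ* KO/GFP, where 8 were needed. It thus passed the filter through the group where it was high, and its calls in the injected comparisons are given as a description. *Mmp19*, a secreted protease found in vessels and skin, was at 14.5, 8.76, 7.55 and 14.4 CPM against 4.18, 6.58, 6.41 and 7.67 CPM. The *Mmp19* groups overlapped slightly, its log2 fold change was 0.75 ± 0.21 (adjusted p = 0.0268, limma), and the call was lost without WT/GFP replicate 1 or *Xinβ* KO/GFP replicate 1 or 4. *Mmp8* was above 1 CPM only in *Xinβ* KO/GFP libraries, at 4.35, 1.77, 1.81 and 5.18 CPM, and was not above 0.482 CPM in the other 12, so it failed the filter. With no filter its log2 difference was 1.83 ± 0.24 from WT/GFP and -1.82 ± 0.24 with YAP S127A in KO hearts. Both differences of *Mmp8* are given as a description for that reason. Its reads numbered 222 in *Xinβ* KO/GFP, 9 in WT/GFP, 13 in WT/YAP S127A and 10 in *Xinβ* KO/YAP S127A hearts.

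The neutrophil markers followed the same groups as *Mmp8* and *Mmp9*. Their sum over the 7 listed genes was 34.8 to 69.2 CPM in the *Xinβ* KO/GFP, 7.61 to 16.01 CPM in WT/GFP, 8.36 to 14.4 CPM in WT/YAP S127A and 4.12 to 17.4 CPM in the *Xinβ* KO/YAP S127A hearts. Of the 5 tested, 4 rose in *Xinβ* KO/GFP hearts and 4 fell with YAP S127A in KO hearts, where 6.43% of all genes rose and 6.92% fell. These counts are a description, since the sums were low in the other groups and entry could depend on the *Xinβ* KO/GFP libraries. Macrophage markers moved in the opposite direction, with 5 of 7 lower in *Xinβ* KO/GFP hearts and a summed level of 27.2 to 76.2 CPM against 83.3 to 124 CPM in the WT/GFP hearts. With YAP S127A in KO hearts 5 of 7 macrophage markers rose, to a sum of 85.4 to 107 CPM. Over all genes 7.22% were lower in *Xinβ* KO/GFP hearts and 7.85% rose with YAP S127A in KO hearts. The part of either marker list in the protease differences was not tested.

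**Figure D3:**
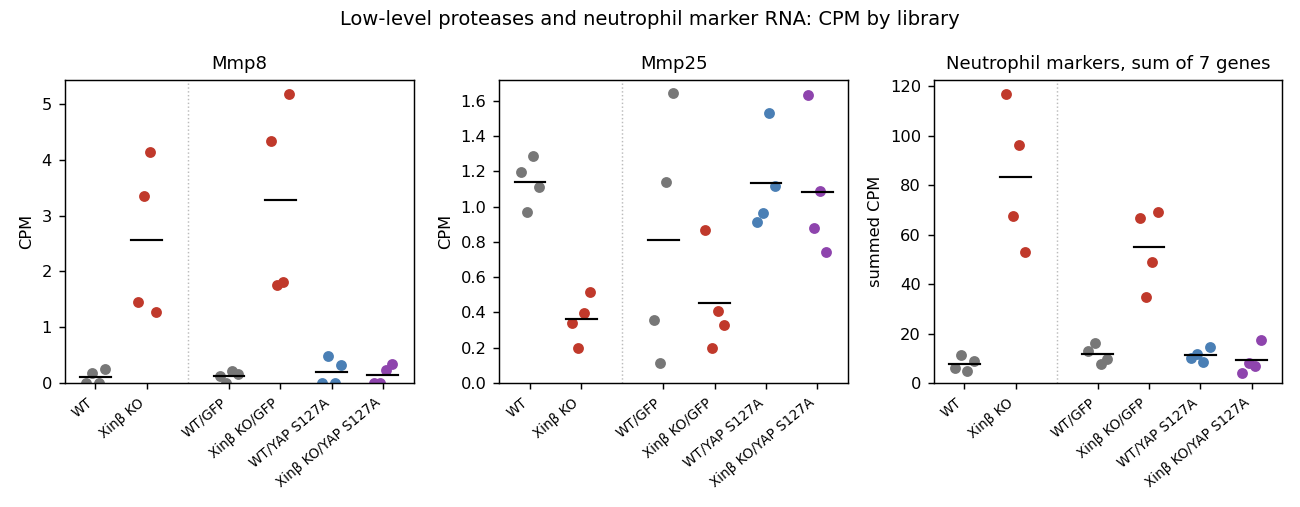
CPM in each library (points) of *Mmp8* and *Mmp25* and the summed CPM of 7 listed neutrophil markers, with group means as lines. *Mmp8* and the marker sum are high in the 8 *Xinβ* KO hearts that did not receive YAP S127A, and *Mmp25* is not.

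Of 15 ADAMTS proteases, 6 passed in *Xinβ* KO/GFP hearts, against 13.7% of all genes. *Adamts6* rose most, from 13.8, 14.1, 14.6 and 8.60 CPM in WT/GFP to 32.5, 24.4, 36.2 and 39.5 CPM in the *Xinβ* KO/GFP hearts, a log2 fold change of 1.32 ± 0.27 (adjusted p = 0.0039, limma). *Adamts7* was at 56.3, 62.7, 44.2 and 71.2 CPM against 26.7, 27.6, 34.0 and 28.5 CPM, a rise of 0.97 ± 0.14 (log2, adjusted p = 0.000449, limma). *Adamts17* was at 6.58, 7.26, 11.3 and 4.13 CPM against 17.6, 17.9, 13.2 and 21.6 CPM, a log2 fold change of -1.21 ± 0.20 (adjusted p = 0.0013, limma). For these 3 proteases the groups did not overlap.

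*Adamts15* and *Adamts8*, both of the subfamily that cuts large proteoglycans such as versican, fell. *Adamts15* was at 14.3, 9.55, 11.7 and 15.9 CPM in the *Xinβ* KO/GFP and at 21.6, 30.7, 18.4 and 19.9 CPM in the WT/GFP hearts, a log2 fold change of -0.77 ± 0.18 (adjusted p = 0.00968, limma). *Adamts8* was at 3.41, 5.17, 10.004 and 3.03 CPM against 11.1, 10.9, 8.48 and 8.49 CPM, a log2 fold change of -0.86 ± 0.24 (adjusted p = 0.0272, limma), with KO replicate 3 among the WT values. *Adamts19*, a close relative of *Adamts17*, was at 9.19, 11.3, 15.3 and 7.05 CPM against 13.4, 15.6, 15.4 and 19.8 CPM, and its call (log2 fold change -0.58 ± 0.18, adjusted p = 0.0459, limma) was the least secure. The *Adamts8* call was lost without WT/GFP replicate 1 or 2 or *Xinβ* KO/GFP replicate 1 or 4 (adjusted p up to 0.0962), and the *Adamts19* call in 11 of 16 fits that each left out 1 library (adjusted p up to 0.153).

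Among the matrix-binding and crosslinking members, *Adamtsl4* was at 43.0, 37.7, 37.0 and 51.0 CPM in the *Xinβ* KO/GFP and at 17.6, 16.3, 22.7 and 21.9 CPM in the WT/GFP hearts, a rise of 1.07 ± 0.16 (log2, adjusted p = 0.000588, limma). *Adamtsl5* was at 19.7, 23.1, 24.1 and 17.0 CPM against 36.2, 23.6, 31.6 and 36.0 CPM, a log2 fold change of -0.57 ± 0.17 (adjusted p = 0.0307, limma), and the groups overlapped slightly. *Loxl1*, an elastin crosslinking enzyme, was at 62.5, 62.9, 71.7 and 57.3 CPM against 94.8, 88.6, 94.8 and 88.2 CPM, a tight and separate pair of groups with a log2 fold change of -0.52 ± 0.10 (adjusted p = 0.00359, limma). *Loxl2*, which crosslinks basement-membrane and fibrillar collagen, was at 99.8, 101, 137 and 75.5 CPM against 141, 150, 130 and 146 CPM, a log2 fold change of -0.48 ± 0.13 (adjusted p = 0.0224, limma), with KO replicate 3 inside the WT range. *Lox* itself was at 27.5 to 41.5 CPM and 25.6 to 39.3 CPM, and its log2 difference of 0.15 ± 0.13 did not pass. The *Adamtsl5* call was lost without WT/GFP replicate 1, 3 or 4 or KO replicate 1 or 4 (adjusted p up to 0.101), and the *Loxl2* call without WT/GFP replicate 2 or 4 or KO replicate 1 or 4 (adjusted p up to 0.0708). When only the 2 groups compared were fitted, the calls of *Mmp19*, *Adamts8*, *Adamts19*, *Adamtsl5* and *Loxl2* were lost, and edgeR did not call *Adamts8* or *Adamts19*.

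**Figure D4:**
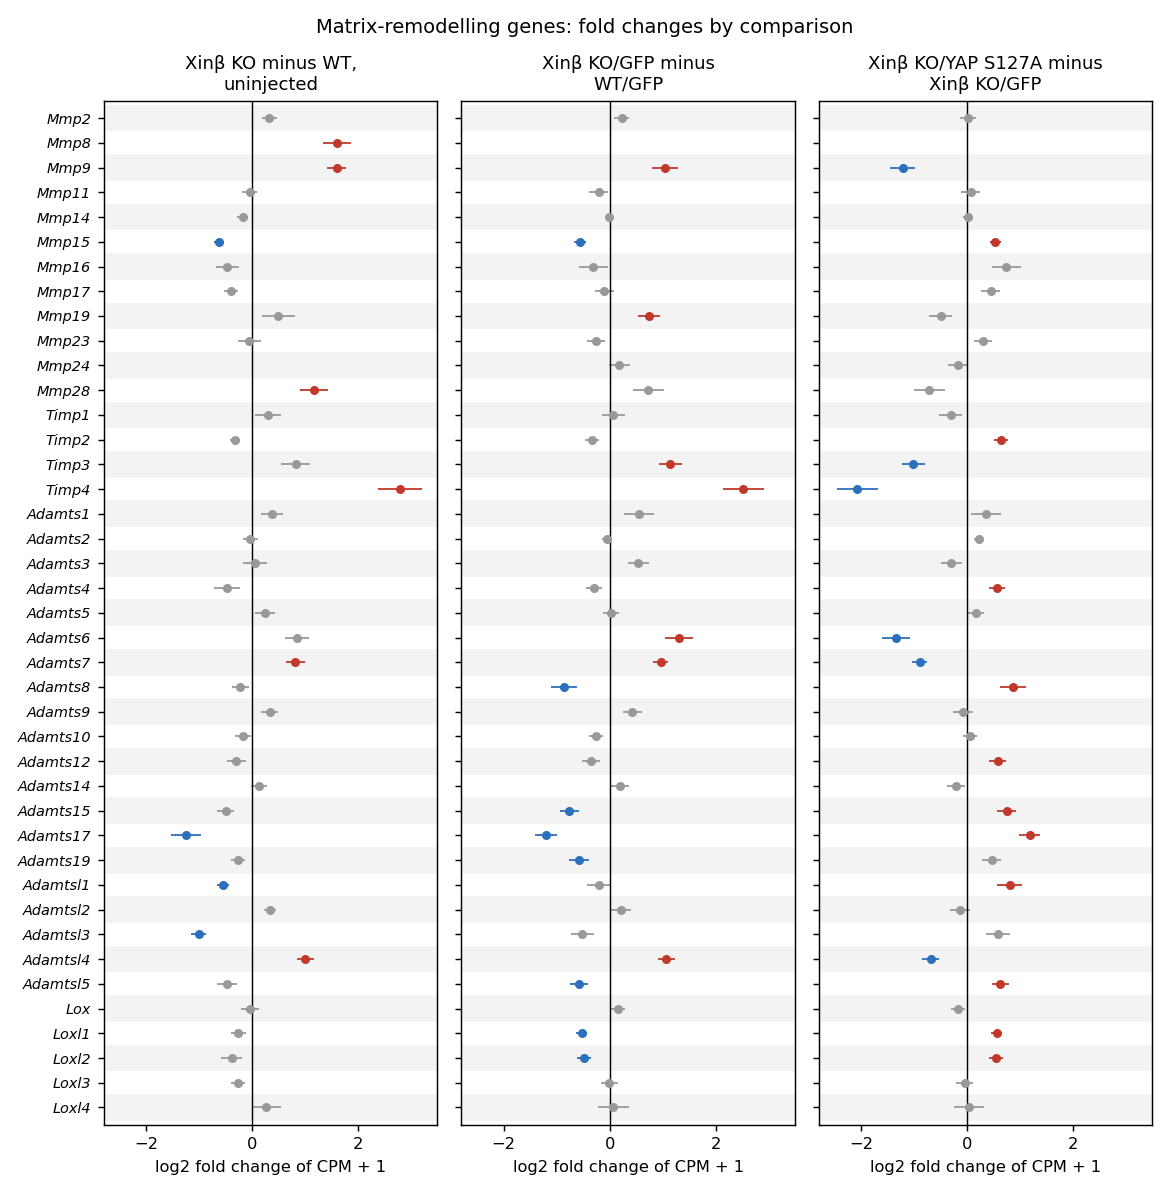
Log2 fold change of CPM + 1 (points) with its SE (bars) for each tested member in 3 comparisons, in red where called higher, blue where called lower and grey where not called at an adjusted p of 0.05. The panels share the *Xinβ* KO/GFP libraries between the second and the third comparison, and 10, 15 and 17 of 40 members are coloured from left to right.

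The comparison of *Xinβ* KO/YAP S127A with *Xinβ* KO/GFP hearts asked which members respond to cardiomyocyte YAP S127A in the knockout. Of 40 members 17 passed, 11 higher and 6 lower, against 14.8% of all genes, 7.85% higher and 6.92% lower. The median log2 fold change was 0.06, against 0.01 over all genes, and groups did not overlap for 13 members and 17.5% of all genes. *Timp4*, *Timp3*, *Mmp9*, *Adamts6*, *Adamts7* and *Adamtsl4* fell. *Mmp15*, *Timp2*, *Adamts4*, *Adamts8*, *Adamts12*, *Adamts15*, *Adamts17*, *Adamtsl1*, *Adamtsl5*, *Loxl1* and *Loxl2* rose. This comparison uses the same *Xinβ* KO/GFP libraries as the preceding one, so the directions of the 2 comparisons are not independent.

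*Timp4* fell to 9.13, 6.66, 6.80 and 9.49 CPM with YAP S127A in KO hearts, below every *Xinβ* KO/GFP heart, a log2 fold change of -2.07 ± 0.39 (adjusted p = 0.0022, limma). *Timp3* was at 192, 205, 147 and 157 CPM, a log2 fold change of -1.02 ± 0.22 (adjusted p = 0.00528, limma), and overlapped the *Xinβ* KO/GFP group only through its replicate 2. *Syn3* was at 68.0 to 92.7 CPM in these hearts, below the 137 to 254 CPM of *Xinβ* KO/GFP hearts. *Timp2* moved the other way, to 178, 153, 200 and 245 CPM, each above every *Xinβ* KO/GFP heart, a rise of 0.64 ± 0.13 (log2, adjusted p = 0.00462, limma). *Timp1* was at 6.41 to 7.84 CPM with a log2 difference of -0.31 ± 0.22, which did not pass (adjusted p = 0.362, limma).

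For the proteases, *Mmp9* was at 0.113, 0.234, 1.03 and 1.49 CPM in the *Xinβ* KO/YAP S127A hearts, all below *Xinβ* KO/GFP, with a log2 fold change of -1.21 ± 0.24 (adjusted p = 0.00299, limma). This is a description, since *Mmp9* passed the filter through the *Xinβ* KO/GFP libraries. *Mmp15* was at 201, 226.5, 248 and 279 CPM, all above *Xinβ* KO/GFP, with a log2 fold change of 0.54 ± 0.11 (adjusted p = 0.00459, limma). *Adamts17* reached 18.9, 15.1, 16.5 and 17.6 CPM, a rise of 1.18 ± 0.20 (log2, adjusted p = 0.00135, limma). *Adamts6* stood at 11.6, 17.6, 9.61 and 11.5 CPM and *Adamts7* at 26.2, 27.0, 33.6 and 36.5 CPM. Both lay below every *Xinβ* KO/GFP heart, with log2 fold changes of -1.34 ± 0.27 and -0.90 ± 0.14 (adjusted p = 0.00338 and 0.000749, limma).

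*Adamts15*, *Adamts8*, *Adamts4* and *Adamts12* also rose with YAP S127A in KO hearts, whereas *Adamts1*, *Adamts5* and *Adamts9* were not called. *Adamts15* was at 27.7, 24.4, 17.7 and 19.1 CPM (log2 fold change 0.74 ± 0.18, adjusted p = 0.0105, limma) and *Adamts8* at 9.98, 10.3, 10.4 and 8.35 CPM (0.86 ± 0.24, adjusted p = 0.0258, limma). *Adamts4*, which encodes an aggrecanase, was at 18.7, 19.1, 15.2 and 12.8 CPM against 9.56, 9.42, 11.99 and 11.8 CPM in the *Xinβ* KO/GFP hearts, a rise of 0.57 ± 0.15 (log2, adjusted p = 0.0193, limma). *Adamts12*, the closest relative of *Adamts7*, rose although *Adamts7* fell, from 28.6, 17.7, 28.4 and 27.8 CPM to 43.5, 37.0, 36.7 and 35.2 CPM (0.58 ± 0.16, adjusted p = 0.0252, limma). Some of these calls lay near the threshold and were lost when 1 library was left out. *Adamts4* was lost without KO/GFP replicate 1 or KO/YAP S127A replicate 1 or 2 (adjusted p up to 0.0660), *Adamts12* without KO/GFP replicate 2 or KO/YAP S127A replicate 1 (up to 0.0772), and *Adamts8* without KO/GFP replicate 1 or 4 or KO/YAP S127A replicate 1, 2 or 3 (up to 0.0847). In these fits the log2 fold changes were 0.49 to 0.52 for *Adamts4*, 0.41 and 0.51 for *Adamts12* and 0.68 to 0.85 for *Adamts8*.

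*Adamtsl4* was at 25.8, 19.2, 26.6 and 32.3 CPM in the *Xinβ* KO/YAP S127A hearts, a log2 fold change of -0.69 ± 0.16 (adjusted p = 0.00975, limma). *Adamtsl5* was at 29.7, 28.6, 42.1 and 32.0 CPM, a rise of 0.63 ± 0.17 (log2, adjusted p = 0.0184, limma). The scarce *Adamtsl1* was at 2.93, 1.52, 2.97 and 5.32 CPM against 1.61, 1.18, 1.17 and 1.16 CPM in the *Xinβ* KO/GFP hearts (0.81 ± 0.23, adjusted p = 0.0281, limma), with slight overlap. *Loxl1* was at 87.5, 82.7, 98.9 and 108 CPM and *Loxl2* at 163, 153, 130 and 148 CPM, with log2 fold changes of 0.56 ± 0.10 and 0.55 ± 0.13 (adjusted p = 0.00231 and 0.0106, limma). The *Loxl1* groups were separate, and the *Loxl2* groups overlapped through KO/GFP replicate 3. When only the 2 groups compared were fitted, the *Loxl2* call was lost (adjusted p = 0.0642, limma), as were those of *Adamts4*, *Adamts8*, *Adamts12* and *Adamtsl1*, and edgeR did not call *Adamts8*. The *Adamtsl1* call was lost without KO/GFP replicate 4 or KO/YAP S127A replicate 1, 3 or 4 (adjusted p up to 0.0847), and the *Adamtsl5* call without KO/GFP replicate 1 or 4 or KO/YAP S127A replicate 3 (up to 0.0617).

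No member passed in the other comparisons of injected hearts. *Xinβ* KO/YAP S127A against WT/GFP gave 0 of 40 by limma, with 4 under an unadjusted p of 0.05, where 0.0206% of all genes passed and 6.08% lay under the unadjusted value. *Xinβ* KO/YAP S127A against WT/YAP S127A gave 0 of 40, with 2 under an unadjusted p of 0.05, where 0.0411% of all genes passed and 11.1% lay under the unadjusted value. WT/YAP S127A against WT/GFP gave 0 of 40, with 3 under an unadjusted p of 0.05, where 0% of all genes passed and 6.93% lay under the unadjusted value. The edgeR and DESeq2 fits on recovered reads also gave 0 members in each of these comparisons. In the first of these comparisons the member differences ran from -0.24 to 0.91 on the log2 scale. *Adamts1*, a protease of versican, gave the largest, at 99.0, 95.9, 107 and 181 CPM against 42.4, 36.1, 96.4 and 95.9 CPM (0.91 ± 0.29, adjusted p = 0.678, limma). For *Timp4* the difference was 0.45 ± 0.39, for *Mmp15* -0.02 ± 0.11, for *Adamts17* -0.03 ± 0.20 and for *Loxl1* 0.03 ± 0.10. A difference that misses the threshold does not show that the levels were equal.

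Whether YAP S127A acted differently in KO and WT hearts was tested directly as an interaction. Of 40 members 11 passed, 6 with a positive and 5 with a negative value, against 7.56% of all genes, 3.8% positive and 3.77% negative. The interaction was -2.35 ± 0.55 for *Timp4* (adjusted p = 0.0183, limma), with WT/YAP S127A hearts at 4.74, 8.02, 7.34 and 7.94 CPM. It was also negative for *Adamts6*, *Adamts7*, *Mmp9* and *Adamtsl4*, from -1.75 to -0.79, and positive for *Adamts8*, *Adamts15*, *Adamts17*, *Loxl1*, *Loxl2* and *Mmp15*, from 0.67 to 1.23. The value of *Mmp9* is a description, since it passed the filter through the *Xinβ* KO/GFP libraries. *Timp3* and *Timp2* had interactions of -0.94 ± 0.31 and 0.54 ± 0.19 and did not pass (adjusted p = 0.0749 and 0.0933, limma). The count was 6 without WT/GFP replicate 1, *Xinβ* KO/GFP replicate 1, WT/YAP S127A replicate 2 or 4 or *Xinβ* KO/YAP S127A replicate 1, and 7 without WT/GFP replicate 2 or 4, WT/YAP S127A replicate 3 or *Xinβ* KO/YAP S127A replicate 2. In these fits 4.32% to 5.27% of all genes were called.

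The matrix substrates of these enzymes were measured beside them, from a list of 15 genes. In uninjected KO hearts 4 fell and 0 rose, with a median log2 fold change of -0.30, and in *Xinβ* KO/GFP hearts 6 fell and 0 rose, with a median of -0.38. With YAP S127A in KO hearts 7 rose and 0 fell, with a median of 0.48. The summed level of the list was 7410 to 8058 CPM in KO replicates 1 to 3, 10945 CPM in KO replicate 4 and 10760 to 11414 CPM in WT hearts, so KO replicate 4 lay within the WT range. *Col3a1*, the chain of type III collagen, was at 1259, 968, 1086 and 1521 CPM in KO and at 2185, 2297, 2209.9 and 2218 CPM in WT hearts (a log2 fold change of -0.90 ± 0.14, adjusted p = 0.00789, limma). In injected hearts *Col3a1* was at 996, 1208, 1364 and 791 CPM in the *Xinβ* KO/GFP and 1945 to 2276 CPM in the WT/GFP hearts (-0.99 ± 0.13, adjusted p = 0.000211, limma), and at 2181 to 2611 CPM in the *Xinβ* KO/YAP S127A hearts. *Col1a1* and *Col1a2*, the chains of type I collagen, fell in both KO against WT comparisons and rose with YAP S127A in KO hearts. *Fn1*, *Eln*, *Sparc*, *Thbs2* and the collagen IV genes passed in none of these 3 comparisons.

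Of 22 partners in pericellular proteolysis, 21 were tested. In uninjected KO hearts 2 rose and 2 fell, in *Xinβ* KO/GFP hearts 2 rose and 3 fell, and with YAP S127A in KO hearts 5 rose and 2 fell. Over all genes 6.69%, 13.7% and 14.8% were called in these 3 comparisons, and a count near that share is not read as a result about the list. *Spock2*, a proteoglycan that modulates membrane-type metalloproteinases, was at 30.1, 68.3, 72.0 and 21.2 CPM in KO and at 6.16 to 8.30 CPM in WT hearts (a log2 fold change of 2.43 ± 0.36, adjusted p = 0.00694, limma). It was at 57.9, 10.98, 16.3 and 81.3 CPM in the *Xinβ* KO/GFP and at 1.79 to 6.69 CPM in the WT/GFP hearts (2.66 ± 0.51, adjusted p = 0.00263, limma), with the same replicates 2 and 3 low as for *Timp4*. *Serpine2*, an inhibitor of serine proteases, also rose in both comparisons. *Fap*, a serine protease of activated fibroblasts, fell from 11.4 to 15.3 CPM in WT to 3.10 to 6.74 CPM in KO hearts (-1.24 ± 0.20, adjusted p = 0.00871, limma), and *Htra1*, a secreted serine protease, fell as well. Of 15 genes of collagen and elastin maturation 14 were tested. In uninjected KO hearts 0 rose and 1 fell, in *Xinβ* KO/GFP hearts 1 rose and 3 fell, and with YAP S127A in KO hearts 4 rose and 1 fell. The uninjected count of 1 of 14 is near the 6.69% called over all genes. *P4ha2*, a subunit of collagen prolyl hydroxylase, was the one that rose in *Xinβ* KO/GFP hearts, and *Tgm2*, a transglutaminase, the one that fell with YAP S127A. *Pcolce2*, an enhancer of procollagen processing, fell in both KO against WT comparisons, by 0.58 ± 0.11 and 1.07 ± 0.15 on the log2 scale (adjusted p = 0.0188 and 0.00036, limma).

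Fibroblast markers were measured beside the members. The summed level of 6 fibroblast markers was 1142 to 1567 CPM in KO and 2132 to 2273 CPM in WT hearts, 1169 to 1664 CPM in the *Xinβ* KO/GFP and 2026 to 2373 CPM in the WT/GFP hearts, and 2043 to 2624 CPM in the *Xinβ* KO/YAP S127A hearts. Of the 6, 3 fell in uninjected KO hearts and 4 in *Xinβ* KO/GFP hearts, and 4 rose with YAP S127A in KO hearts. Over all genes, 3.46% and 7.22% were called lower in the 2 KO against WT comparisons, and 7.85% higher with YAP S127A. *Col1a1* and *Col1a2* stand in both this list and the substrates. Endothelial markers were called lower for 1 of 5 and 3 of 5 genes in the 2 KO against WT comparisons, and smooth muscle and pericyte markers for 1 of 5 in each. A single call among 5 genes is not read as a fall of the markers. With YAP S127A in KO hearts 2 of 5 endothelial and 3 of 5 smooth muscle and pericyte markers rose. Of 6 cardiomyocyte markers, *Tnnt2* alone was called, higher in both KO against WT comparisons and lower with YAP S127A in KO hearts. The part of these markers in the member differences was not tested.

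**Figure D5:**
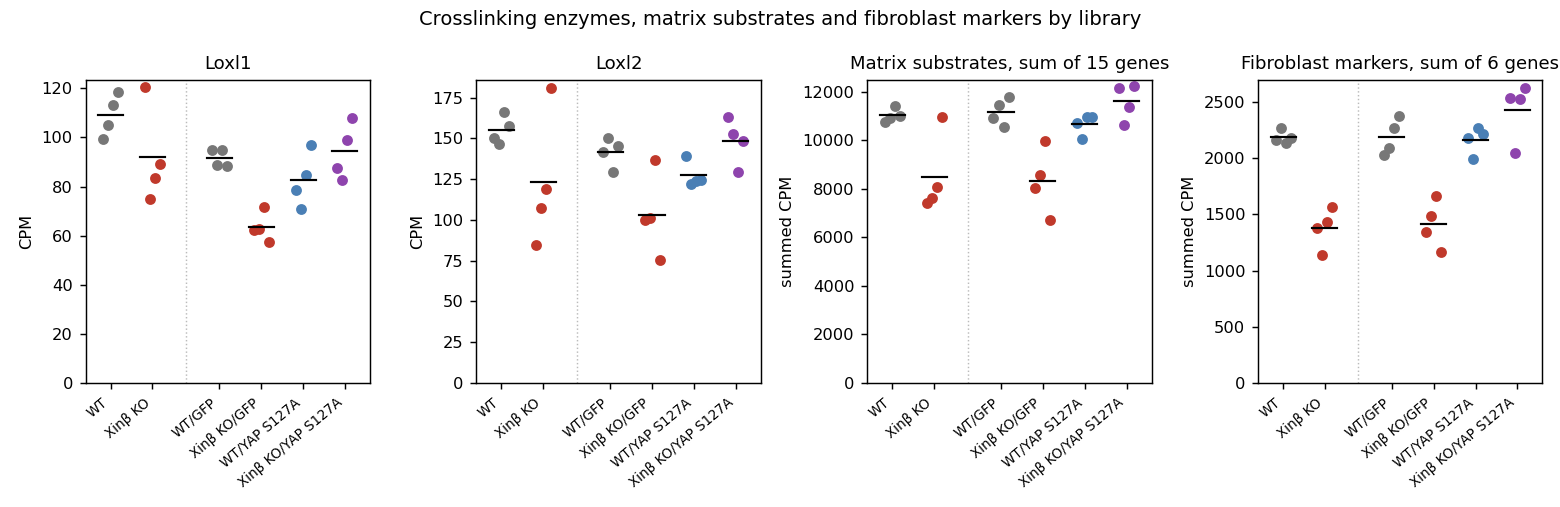
CPM in each library (points) of *Loxl1* and *Loxl2*, and summed CPM of 15 matrix substrates and 6 fibroblast markers, with group means as lines. The *Xinβ* KO/GFP hearts have the lowest means of the injected groups in all 4 panels, and the fibroblast sum separates them from the other 12 injected hearts.

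The other members were not called in any comparison. They were 19 in number and ran from *Loxl4*, at 0.241 to 3.10 CPM, to *Mmp2*, at 110 to 284 CPM. *Mmp14*, *Mmp11*, *Mmp23*, *Adamts2*, *Adamts5*, *Adamts10*, *Lox* and *Loxl3* had log2 differences no larger than 0.31 in the 3 comparisons described above. *Mmp16*, *Mmp17*, *Adamts1*, *Adamts3*, *Adamts9*, *Adamts14* and *Adamtsl2* were not called either, and the highest value among them in these comparisons was 0.74 ± 0.27 for *Mmp16* with YAP S127A in KO hearts (adjusted p = 0.0812, limma). *Mmp24* was listed in the injected table only, at 5.04 to 9.94 CPM. *Adamts20*, a protease of versican, was listed there only as well, at 0.392 to 2.52 CPM, and did not pass the filter. *Mmp25* was at 0.112 to 1.64 CPM in the injected table and did not pass it either. The members listed in neither table were *Mmp1b*, *Mmp3*, *Mmp7*, *Mmp10*, *Mmp12*, *Mmp13*, *Mmp20*, *Mmp21*, *Mmp27*, *Adamts13*, *Adamts16* and *Adamts18*.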

How the data were processed

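The authors trimmed reads with cutadapt 2.3, checked them with FastQC, aligned them to GRCm38 with HISAT2 2.1.0, counted with StringTie 1.3.4 and computed CPM with edgeR 3.26.1, as given in the submitters' processing notes and the methods. The deposited values, 1 table for 8 uninjected and 1 for 16 injected libraries, are a normalised signal (CPM after library scaling). Within 0.05 of a read, 99.96% or more of values corresponded to whole reads. In 1 uninjected WT library the smallest value was worth 3 reads, so the worth of 1 read was taken from differences between values. Whether counting used the strand is not given in the sources used here.

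Members were matched by symbol. Genes above 1 CPM in at least 4 uninjected or 8 injected libraries were tested with limma 3.58.1 (R 4.3.3) on log2(CPM + 1), with 1 model per table and Benjamini-Hochberg adjustment over all tested genes. Fold changes are on that scale and understate those of low genes. edgeR 4.0.16 and DESeq2 1.42.0 on recovered reads were alternatives. The fit was tested on simulated data. Members, gene lists and tests were chosen with earlier results of these data known. Members called at an adjusted p of 0.05, and all TIMPs, were named with values. The study describes its RNA-seq replicates as biologically independent, but the labels do not tie libraries to animals, and p-values measure only the spread between these samples.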

Additional observations from a re-analysis of the deposited data

Results flagged for a closer look

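In 138 groups of 4 values, from 23 members, 4 single values stood apart from the other 3 of their group by Dixon's criterion, where chance gives about 1 in 20 groups, or 6.9. *Adamts6* was at 8.60 CPM in WT/GFP replicate 4 and 13.8 to 14.6 CPM in the other WT/GFP hearts. *Adamts12* was at 17.7 CPM in *Xinβ* KO/GFP replicate 2 and 27.8 to 28.6 CPM in the others. *Adamtsl1* was at 1.61 CPM in *Xinβ* KO/GFP replicate 1 and 1.16 to 1.18 CPM in the others. *Loxl2* was at 139 CPM in WT/YAP S127A replicate 1 and 122 to 125 CPM in the others.

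The effect of YAP S127A differed between KO and WT hearts, by the limma interaction term, for 11 of 40 members, against 7.56% of all genes. Leaving out 1 library gave 6 to 12 members, while 4.32% to 10.1% of all genes were called. With the replicate block it was 7 members and 4.84% of all genes. *Mmp9* among the 11 passed the filter through the *Xinβ* KO/GFP libraries. The log2 effect in KO minus that in WT was -2.35 for *Timp4*, -1.75 for *Adamts6*, -1.16 for *Mmp9*, -1.09 for *Adamts7* and -0.79 for *Adamtsl4*. It was 1.23 for *Adamts8*, 1.13 for *Adamts15*, 1.05 for *Adamts17*, 0.71 for *Loxl1*, 0.70 for *Loxl2* and 0.67 for *Mmp15*.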

How the results depend on the processing

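In the 3 comparisons with called members other than the interaction, for which members were not followed singly, no called member reversed direction under another pseudocount, filter, scaling, tool or left-out library. The number called was 6 to 14 in uninjected KO against WT hearts, 10 to 16 in *Xinβ* KO/GFP against WT/GFP, 12 to 18 for YAP S127A in KO hearts and 7 to 14 for the interaction. DESeq2 reached these upper ends, where it called 12.5%, 16.4%, 17.9% and 10.6% of all genes. At the lower ends 2.47%, 6.37%, 8.28% and 4.84% of all genes were called. Leaving out 1 library gave 6 to 15, 10 to 18, 13 to 20 and 6 to 12 members, while the share of all genes called ran from 2.43% to 13.5%, 8.65% to 18.9%, 10.1% to 17.1% and 4.32% to 10.1%. With a term for replicate number added to the fit (the replicate block), 6 members were called in uninjected hearts and 7 for the interaction, against 10 and 11 without it. The uninjected calls of *Mmp15* (adjusted p = 0.0507, limma), *Mmp28*, *Adamts7*, *Adamts17* and *Adamtsl1* were lost with it. The replicate numbers do not pair the samples, since same-numbered libraries correlated by -0.19 to 0.14 after removal of group means. Fitting only the groups compared gave 10 members in *Xinβ* KO/GFP against WT/GFP and 12 for YAP S127A in KO hearts. Over all genes, DESeq2 called 1955 in uninjected hearts against 1044 by limma, and the replicate block 2.47% of genes against 6.69%. Fitting only the groups compared gave 930 genes against 1993 in *Xinβ* KO/GFP against WT/GFP and 1208 against 2156 for YAP S127A in KO hearts, and the block gave 707 against 1104 for the interaction. *Timp1* in *Xinβ* KO/GFP against WT/GFP, which was not called, ranged from -0.085 to 0.27 when 1 library was left out, with -0.085 without WT/GFP replicate 4, -0.052 without KO/GFP replicate 2 and -0.064 without KO/GFP replicate 3. The cause of these changes was not tested. Genes of few reads, such as *Mmp8*, *Mmp9*, *Mmp25* and *Loxl4*, are limited by depth.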
